A study of Mus musculus with 6 samples.

Results

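Connexins and pannexins are the channel proteins through which neighbouring cells share small molecules or release them. The data were searched for 8 of their genes by symbol, Gja1, Gja3, Gja4, Gja5, Gjb2, Gjb6, Gjc1 and Panx1, and all 8 were found among the 54532 genes of the count table. They form part of a family of 23 connexin and pannexin genes in that table, and the other 15 are summarised where they bear on the 8. RNA-seq had been done on cultured mouse aortic endothelial cells (MAEC) labelled Oct4 KO, 3 libraries from female and 3 from male mice, to ask what the pluripotency factor OCT4 does in endothelial cells. Both groups were grown as primary cultures in serum-containing medium with endothelial growth factors and were untreated. Both carried the same endothelial deletion of Oct4 (Pou5f1), so the comparison is of female with male knockout cells. Pou5f1 had 0 counts in all 6 libraries, but wild-type cells were not analysed here, so these counts do not by themselves show the deletion. The labels name neither the Cre driver nor the age of the mice. Since separate cultures or animals are not stated for the libraries of a sex, the p-values cover just their spread, which could be technical.

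Connexins assemble in the plasma membrane into hexameric hemichannels, and hemichannels of adjacent cells dock to form gap junctions that pass ions, second messengers and metabolites. In arteries, Cx37 and Cx40 (Gja4 and Gja5) are the connexins typical of endothelium, Cx43 (Gja1) is found in endothelium, smooth muscle and many mesenchymal cells, and Cx45 (Gjc1) is mainly a smooth muscle and cardiac conduction connexin. Pannexins resemble connexins in membrane layout but act mostly as single-membrane channels, and Panx1 is best known as a conduit for ATP release.

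Library totals spanned 20404758 to 21483163 counts (female) and 19299742 to 23064738 counts (male). Levels are given as CPM, the count scaled to the effective (TMM) library size, and as RPKM, CPM per kilobase of gene model, where genes are compared with each other. A count of 0 allows up to 3 counts, which is 0.123 to 0.154 CPM depending on the library, and covers counting error only. Several defining markers of the labelled cell type were absent or nearly so: 12 of the 18 endothelial genes listed stayed below 1 CPM throughout, Emcn, Cldn5, Robo4 and Sox17 had 0 counts throughout, and Cdh5, the VE-cadherin gene, had 0 to 4 counts per library. The summed level of the endothelial list was 196 to 214 CPM in the female and 276 to 341 CPM in the male replicates, most of it from Eng, which was lower, and Flt1 and Cd34, which were higher in female cells. The 13 fibroblast genes summed to 33675 to 36158 CPM in the female and 21010 to 22873 CPM in the male replicates, with Fn1 the largest term (18667 CPM in female and 14251 CPM in male cells). Of these genes 8 were called higher, among them Dcn and Lum, and 3 lower, namely Fbln1 (70.9 CPM in female and 596 CPM in male cells), Mfap5 and Col1a2. Calls were common here and in the lists that follow, since 30.9% of all tested genes were called higher and 29.8% lower. The 8 pericyte genes summed to 588 to 616 CPM (female) and 785 to 827 CPM (male), but 5 were higher and 3 lower in female cells. Among the higher, Cspg4 stood at 108 CPM in female and 3.19 CPM in male cells, and Anpep at 146 and 38.1 CPM. Among the lower, Rgs5 stood at 0.756 CPM in female and 256 CPM in male cells, a large part of the male sum. The 7 adipocyte genes summed to 16.2 to 20.4 CPM (female) and 47.1 to 59.7 CPM (male), and all 4 that were tested were lower. Smooth muscle genes were closer in sum, at 761 to 805 CPM (female) and 800 to 851 CPM (male) over 12 genes. Most of that sum was Cald1 (703 CPM in female and 656 CPM in male cells), which was not called. Of the 8 tested, 2 were higher, among them Itga8 (19.1 CPM in female and 5.85 CPM in male cells). Another 4 were lower, among them Acta2 (3.71 CPM in female and 23.3 CPM in male cells). The part of these differences in the connexin values below was not tested, and in bulk RNA fewer cells of a type and less RNA per cell cannot be told apart.

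The summed level of the connexins among the 8 was higher in every female than in any male library, and its make-up differed. Gja1 and Gja5 were higher, Gjc1 was slightly higher, Gja4 was lower, Panx1 was not called, and Gja3, Gjb2 and Gjb6 were not read in any library. Of the 8 genes, 5 passed the low-count filter, and 4 of these were called at an adjusted p under 0.05, with 3 higher and 1 lower in female cells. A call by itself was common, since 60.7% of the 14814 genes tested had one (30.9% higher, 29.8% lower in female cells). Calls of at least 4-fold were rarer, at 6.39% of tested genes higher and 3.68% lower in female cells. Gja1, Gja5 and Gja4 were among them, but Gja5 (4.11-fold) and Gja4 (4.62-fold) lay close to that limit. In their weakest alternatives both fell under 4-fold, with log2 fold changes of 1.83 for Gja5 and -1.83 for Gja4. For the 4 called genes the sexes were fully apart in CPM, as they were for 67.1% of tested genes. Gja1, Gjc1 and Panx1 passed the filter in either sex, while Gja4 passed only through the male and Gja5 only through the female replicates, which makes a difference in those 2 more likely to be seen. The 4 calls held in all 15 alternative analyses.

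Gja1 (ENSMUSG00000050953, mm10 chromosome 10, 56377330 to 56402513, plus strand) encodes Cx43, the most widely expressed connexin. It had 26705, 26019 and 23774 counts in the female replicates, which is 1290, 1333 and 1205 CPM, against 3680, 3215 and 4309 counts in the male replicates, which is 175, 162 and 177 CPM. Every female library was far above every male one, and the libraries of a sex lay close together. The means were 1276 ± 65.1 CPM in female and 171 ± 8.05 CPM in male cells (SD, n = 3 each), a 7.45-fold difference (log2 fold change 2.90 ± 0.08 SE, edgeR quasi-likelihood adjusted p = 1.51e-14). With each library corrected for gene length and GC content, the log2 fold change of Gja1 was 2.39. By RPKM Gja1 ranked 280 to 332 of the 14814 tested genes in the female replicates and 2960 to 3261 in the male replicates. The expression pattern nearest to that of Gja1 over the 6 libraries, by distance of centred log2 CPM among 10407 protein-coding genes averaging 5 CPM or more, was that of Dchs1 and then Agrn. Dchs1, a large protocadherin gene, was at 120 ± 4.01 CPM in female and 16.6 ± 0.648 CPM in male cells. Agrn, the agrin gene, had a log2 fold change of 2.93 ± 0.09. Genes chosen by this distance have a similar difference between the sexes by construction, here and for the other members below.

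The sequence upstream of Gja1 is shown because this gene carried most of the RNA of the connexins among the 8, and the largest difference in CPM. The window is the 250 bases before the RefSeq start on GRCm38.p6 (chr10:56377050-56377299, plus strand), and 3 short motifs were searched for on both strands: TATAAA (the TATA box), GGGCGG (the GC box bound by Sp1-type factors) and TGANTCA (the AP-1 site). Capitals mark the matches, which overlap no other match. Gja1 held a single match, to the AP-1 motif, close to the start.
Gja1: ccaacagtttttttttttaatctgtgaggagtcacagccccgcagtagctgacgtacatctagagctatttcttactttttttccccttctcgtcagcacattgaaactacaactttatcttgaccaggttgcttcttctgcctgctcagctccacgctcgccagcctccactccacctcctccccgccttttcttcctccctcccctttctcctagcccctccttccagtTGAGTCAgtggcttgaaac
Among 32851 promoter windows of this length, 6.75% held an AP-1 match, 32.7% a GC box and 12.4% a TATA box. A match describes the sequence only.

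**Figure D1:**
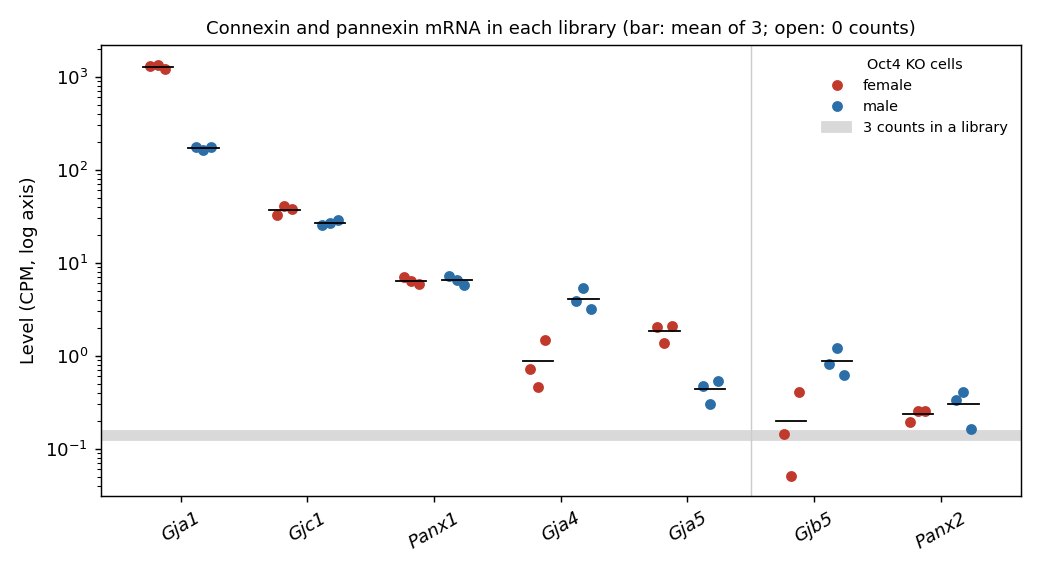
Level of selected connexin and pannexin genes in CPM on a log axis, female replicates to the left of male replicates for each gene. Points are libraries, bars are means of 3, and the grey band is the CPM of 3 counts. Further family genes, some of them read, are not drawn. The 5 genes left of the line are members of the set of 8 that were read, and the 2 on the right are other family genes; female Gja1 sits at 1205 to 1333 CPM, above all other points.

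Gjc1 (ENSMUSG00000034520, chromosome 11, 102799579 to 102819700, minus strand), the Cx45 gene, was the next most abundant. It stood at 32.9, 40.3 and 37.7 CPM in the female replicates, against 25.4, 27.0 and 28.7 CPM in the male replicates. The groups did not overlap, but the lowest female and the highest male library were close. The mean of 37.0 ± 3.74 CPM in female cells was 1.37-fold that of 27.1 ± 1.66 CPM in male cells (SD, n = 3 each; log2 fold change 0.45 ± 0.11, edgeR adjusted p = 0.00189). Because Gja1 differed much more, the RPKM ratio of Gja1 to Gjc1, which does not depend on library scaling, was 19.1, 16.1 and 15.6 in the female replicates and 3.35, 2.93 and 3.01 in the male replicates. That gap was complete, and the exact two-sided permutation test gave p = 0.1, the smallest p that 3 against 3 libraries allow. The patterns nearest to Gjc1 were those of Dot1l and Virma, with log2 fold changes of 0.40 ± 0.10 and 0.45 ± 0.09.

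The 2 connexins typical of arterial endothelium were scarce and went in opposite directions. Gja4 (ENSMUSG00000050234, chromosome 4, 127311421 to 127314039, minus strand), the Cx37 gene, was read 15, 9 and 29 times in the female replicates, which is 0.724, 0.461 and 1.47 CPM, against 81, 106 and 77 counts in the male replicates, which is 3.84, 5.34 and 3.17 CPM. All male replicates were above all female ones, and the female replicates were uneven among themselves. Gja4 averaged 0.885 ± 0.523 CPM in female and 4.12 ± 1.12 CPM in male cells (SD, n = 3 each; log2 fold change -2.21 ± 0.40, edgeR adjusted p = 0.000154).

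Gja5 (ENSMUSG00000057123, chromosome 3, 96904693 to 97077416, plus strand), the Cx40 gene, was read 42, 27 and 41 times in the female replicates, which is 2.03, 1.38 and 2.08 CPM, against 10, 6 and 13 counts in the male replicates, which is 0.474, 0.303 and 0.535 CPM. Here all female replicates were above all male ones. Means were 1.83 ± 0.388 CPM in female and 0.437 ± 0.120 CPM in male cells (SD, n = 3 each; log2 fold change 2.04 ± 0.47, edgeR adjusted p = 0.00129). The annotated span of Gja5 overlaps the start of Gpr89 on the other strand, and whether strand was used in counting is unknown, so part of these reads is uncertain. Gpr89 was not called (12.3 ± 2.16 CPM in female and 11.2 ± 1.39 CPM in male cells, SD, n = 3 each, edgeR adjusted p = 0.478). The RPKM ratio of Gja5 to Gja4 was 0.821, 0.880 and 0.415 in the female replicates and 0.0362, 0.0166 and 0.0495 in the male replicates. The ratio was higher in every female than in any male replicate (exact permutation p = 0.1, the smallest possible). Gja5 passed the filter only through the female and Gja4 only through the male replicates. A gap in this direction was thus favoured beforehand, and the ratio restates the 2 differences above. Which of the pair was higher in female cells depended on the length used: with transcript lengths the ratio was 1.29, 1.38 and 0.649 in female cells and 0.0567, 0.026 and 0.0776 in male cells, so only in male cells was Gja4 the higher with either length. By pattern, the nearest genes to Gja5 were Hoxb6 and Cd34, a sialomucin gene of endothelial and stromal progenitors, which was at 44.2 ± 5.45 CPM in female and 11.9 ± 1.52 CPM in male cells. The nearest to Gja4 were Gstt3 and Rasl11a, with log2 fold changes of -2.12 ± 0.25 and -2.23 ± 0.16.

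Panx1 (ENSMUSG00000031934, chromosome 9, 15002128 to 15045478, minus strand) was at 6.95, 6.35 and 5.88 CPM in the female replicates, against 7.16, 6.55 and 5.80 CPM in the male replicates. The ranges of the sexes almost coincided. Means were 6.40 ± 0.539 CPM in female and 6.50 ± 0.682 CPM in male cells (SD, n = 3 each; log2 fold change -0.02 ± 0.19, edgeR adjusted p = 0.927). An approximate 95% interval of the log2 difference ran from -0.40 to 0.35. Its nearest patterns were those of Gab1 and Rhobtb2, which were not called, as follows from their choice by likeness. The other pannexins were barely read: Panx2 had 4 to 5 counts in the female and 4 to 8 counts in the male replicates, and Panx3 had 6 counts in female replicate 2 and 0 in the others.

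Gja3, Gjb2 and Gjb6 encode Cx46, Cx26 and Cx30, known from the lens (Gja3) and from the inner ear and epithelia (Gjb2 and Gjb6). Each had 0 counts in all 6 libraries, which leaves room for up to 0.154 CPM per library, so no comparison of the sexes was possible at this depth. The 3 genes are neighbours on chromosome 14 (57034460 to 57133611). Zmym2, a zinc finger gene starting 171.4 kb from Gja3, was at 93.5 ± 11.3 CPM in female and 55.5 ± 4.49 CPM in male cells (SD, n = 3 each; log2 fold change 0.75 ± 0.10, edgeR adjusted p = 5.5e-06). Its call held in all 15 alternatives, but the log2 fold change there ran from 0.18 to 0.85. Zmym2 was the only tested gene among the 11 others annotated within 200 kb of the trio, and the rest had at most 2 counts in a library.

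Per length, the order of the members was alike at the top and differed below. In female cells Gja1 stood at 124 ± 6.35 RPKM, Gjc1 at 7.39 ± 0.747, Panx1 at 1.06 ± 0.0894, Gja4 at 0.525 ± 0.310 and Gja5 at 0.318 ± 0.0675 RPKM (SD, n = 3), and the last pair overlapped between libraries. In male cells the order was Gja1 at 16.7 ± 0.785 RPKM, Gjc1 at 5.41 ± 0.333, Gja4 at 2.44 ± 0.662, Panx1 at 1.08 ± 0.113 and Gja5 at 0.0761 ± 0.0210 RPKM (SD, n = 3), with no overlap between neighbours. Gja4 thus stood below Panx1 in every female library and above it in every male library.

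Of the other 15 family genes 4 passed the filter, all through the male replicates alone, and all 4 were called lower in female cells. A gene that passes through a single sex is more likely to be called, so this count is a description and not evidence on the family. Gjb5, a connexin gene of epithelia (chromosome 4, 127354809 to 127358181, minus strand), had 3, 1 and 8 counts in the female replicates and 17, 24 and 15 counts in the male replicates. All female replicates were below all male ones, at 0.201 ± 0.184 CPM in female and 0.878 ± 0.303 CPM in male cells (SD, n = 3 each). Its call was fragile: the log2 fold change of -2.09 ± 0.68 had an edgeR adjusted p of 0.0138, which became 0.0647 without female replicate 1, 0.0704 without female replicate 2 and 0.0632 without male replicate 2. Without female replicate 3 the value was -3.06. Of the 23 family genes 10 had 0 counts in all 6 libraries.

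Gjb5 starts 44.1 kb from Gja4 on the same strand of chromosome 4, and both were lower in female cells. Both passed the filter only through the male replicates, which made a shared direction more likely to be seen. Replicate 3 was the highest female and replicate 2 the highest male replicate for either gene. That order rests on few counts, with 3, 1 and 8 for Gjb5 in the female replicates. Whether the 2 genes are regulated together was not tested. Tmem35b, a tested gene starting 190.3 kb from Gja4 on its other side, was at 6.93 ± 1.63 CPM in female and 7.12 ± 1.03 CPM in male cells and was not called (SD, n = 3 each; edgeR adjusted p = 0.884).

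Upstream sequences of Gja4 and Gjb5 are shown because the genes differed in the same direction. They are the 250 bases before the RefSeq starts on GRCm38.p6, both on the minus strand (chr4:127314040-127314289 and chr4:127358165-127358414), with the same 3 motifs in capitals.
Gja4: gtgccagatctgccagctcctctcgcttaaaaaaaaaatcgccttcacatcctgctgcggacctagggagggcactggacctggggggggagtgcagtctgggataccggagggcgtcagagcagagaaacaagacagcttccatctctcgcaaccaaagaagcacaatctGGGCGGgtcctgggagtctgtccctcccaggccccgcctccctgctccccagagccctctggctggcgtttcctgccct
Gjb5: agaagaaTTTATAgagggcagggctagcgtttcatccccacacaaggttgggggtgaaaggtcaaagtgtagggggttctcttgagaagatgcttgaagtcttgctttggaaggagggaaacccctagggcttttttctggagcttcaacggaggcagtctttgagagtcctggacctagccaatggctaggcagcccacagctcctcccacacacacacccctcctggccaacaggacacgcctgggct
Gja4 held a GC box and no other match, and Gjb5 held a TATA box match near the far end of the window and no other match. None of the 3 motifs was shared by these 2 windows.

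**Figure D2:**
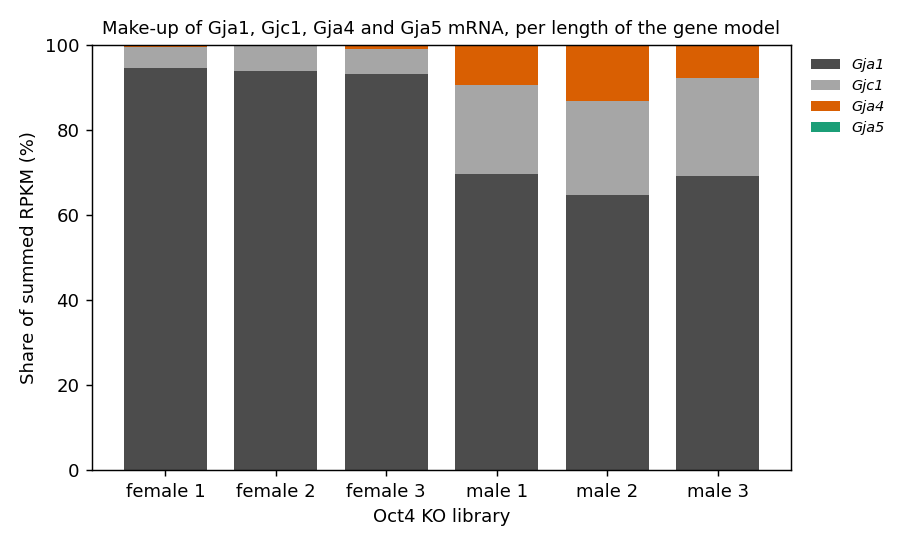
Share of Gja1, Gjc1, Gja4 and Gja5 in their summed RPKM in a library, in percent, with the 3 female replicates left of the 3 male replicates; colours are genes, and the share of Gja5 is too small to be seen well. Gja1 fills 93.1% to 94.5% of the female bars and 64.7% to 69.6% of the male bars, where Gjc1 and Gja4 fill most of the rest.

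The make-up of the RNA of the connexins among the 8 followed from these values. It leaves out the 4 other family genes that passed the filter, all called lower in female cells. With them each share would be smaller, and more so in male than in female cells. Summed over the connexins among the 8 genes, RPKM came to 133, 139 and 126 for the female replicates, against 24.5, 24.4 and 25.0 for the male replicates. Gja1 held 93.8% ± 0.704 of that sum in female and 67.8% ± 2.70 in male cells (SD, n = 3 each; exact two-sided permutation p = 0.1, the smallest possible). Gjc1 held 5.58% ± 0.550 in female and 22.0% ± 1.12 in male cells, and Gja4 held 0.404% ± 0.256 in female and 9.94% ± 2.78 in male cells (SD, n = 3 each). Gja5 had 0.242% ± 0.0599 in female and 0.308% ± 0.0823 in male cells, a share that overlapped between the sexes although its level did not. These shares depended on the length used. The deposited gene model of Gja1 spans 10257 bases of exon, while its longest protein-coding transcript in GENCODE M21 has 3182 bases, and with transcript lengths Gja1 held 95.9% in female and 79.0% in male cells.

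Genes for proteins that bind, anchor, phosphorylate or degrade connexins included more called higher than called lower in female cells. Among 29 such genes with a row of counts, 28 were tested, 17 were higher, 4 lower and 7 not called; the median log2 fold change was 0.34, against -0.01 over all genes, of which 30.9% were called higher and 29.8% lower. With the length and GC correction Mapk3, Wwp1 and Gsk3b, all called without it, changed sign or came to 0, and Wwp1 was then called lower. Of 15 alternatives, 8 weakened Prkce, 7 Wwp1 and 4 Tuba1a to no call. Nedd4 lost its call in 1, with a lowest log2 fold change of 0.08. Over the alternatives 18 to 21 genes of the list were called. Among the higher was Nov, also named Ccn3, a matricellular protein that binds Cx43. It was at 93.9, 131 and 91.0 CPM in the female replicates and 8.58, 6.76 and 9.38 CPM in the male replicates, with no overlap (log2 fold change 3.67 ± 0.15, edgeR adjusted p = 2.1e-12). Tjp1, the gene of the scaffold ZO-1 that binds the Cx43 tail, was at 109 ± 11.3 CPM in female and 51.8 ± 8.32 CPM in male cells (log2 1.08 ± 0.11). Cask, a membrane scaffold gene on the X chromosome, was at 144 ± 10.8 CPM in female and 21.8 ± 2.44 CPM in male cells. Ctnnb1, the beta-catenin gene, was at 1024 ± 46.3 CPM in female and 445 ± 41.7 CPM in male cells (SD, n = 3 each, for both genes). The lower genes were Cdh2, Actn1, Dbn1 and Mapk3. Cdh2, the N-cadherin gene of the adherens junctions that accompany Cx43 plaques, was at 34.5 ± 3.60 CPM in female and 169 ± 19 CPM in male cells (log2 -2.29 ± 0.10, edgeR adjusted p = 6.63e-12), the reverse of Gja1.

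Around Panx1, which itself was not called, receptors of extracellular ATP and nucleotides were found in either direction. Of 29 genes of purinergic release and signalling 19 were tested, 6 were higher, 5 lower and 8 not called. The median log2 fold change was 0, and the share called was close to the 60.7% of all tested genes. P2rx7, an ATP-gated cation channel that works together with Panx1 in macrophages and other cells, was at 30.4, 36.4 and 27.6 CPM in the female replicates and 0.569, 0.504 and 0.329 CPM in the male replicates. No other gene of the list differed as much (log2 fold change 6.07 ± 0.22, edgeR adjusted p = 3.54e-13). P2rx4, a related channel, was at 139 ± 1.84 CPM in female and 86.3 ± 7.27 CPM in male cells, and P2ry2, a receptor for ATP and UTP, at 29.6 ± 4.35 CPM in female and 17.2 ± 2.39 CPM in male cells (SD, n = 3 each). In the other direction, P2ry6, a UDP receptor, was at 0.386, 0.564 and 1.62 CPM in the female replicates and 15, 24.4 and 15.5 CPM in the male replicates (log2 -4.41 ± 0.34, edgeR adjusted p = 7.33e-09), and P2ry1, an ADP receptor, was at 1.59 ± 0.591 CPM in female and 10.9 ± 1.09 CPM in male cells (log2 -2.77 ± 0.25). Alpl, an alkaline phosphatase that can degrade extracellular nucleotides, was at 1.89 ± 1.36 CPM in female and 31.4 ± 1.39 CPM in male cells. Slc29a1, an adenosine transporter, was at 57.1 ± 2.83 CPM in female and 134 ± 7.51 CPM in male cells (SD, n = 3 each). The ecto-enzymes Entpd1 and Nt5e, which turn ATP stepwise into adenosine, were not called, though Nt5e was called lower with the length and GC correction (log2 -0.44, adjusted p = 0.0374).

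Other channels of large pore size and other cell junctions had calls in both directions, beside the 60.7% called over all tested genes. Of 14 large-pore channel genes 11 were tested, 3 were higher (Lrrc8d, Lrrc8b and Vdac1), 4 lower (Calhm5, Slco2a1, Lrrc8a and Calhm2) and 4 not called (median log2 fold change -0.42). Lrrc8a, the obligatory subunit of the volume-regulated anion channel, was at 21.1 ± 3.52 CPM in female and 28.9 ± 3.53 CPM in male cells, while its partner Lrrc8d was at 31.3 ± 3.40 CPM in female and 12.3 ± 0.263 CPM in male cells (SD, n = 3 each). Of 24 genes of tight junctions, adherens junctions and desmosomes 15 were tested, 5 were higher, 7 lower and 3 not called (median log2 fold change -0.16). Jam2, a junctional adhesion molecule, was at 194 ± 14.3 CPM in female and 520 ± 29.5 CPM in male cells (log2 -1.43 ± 0.08, edgeR adjusted p = 1.54e-10), and Cldn15, a claudin, at 0.582 ± 0.110 CPM in female and 5.88 ± 0.881 CPM in male cells. Nectin2 and Cdh13 were also among the lower, and Cdh11, Jup and Nectin3 among the higher, the last of which changed sign with the length and GC correction. Cldn1 was read with 1 count in the male replicates together, and its female over male ratio was 44.6 (95% counting interval 7.57 to 1804).

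**Figure D3:**
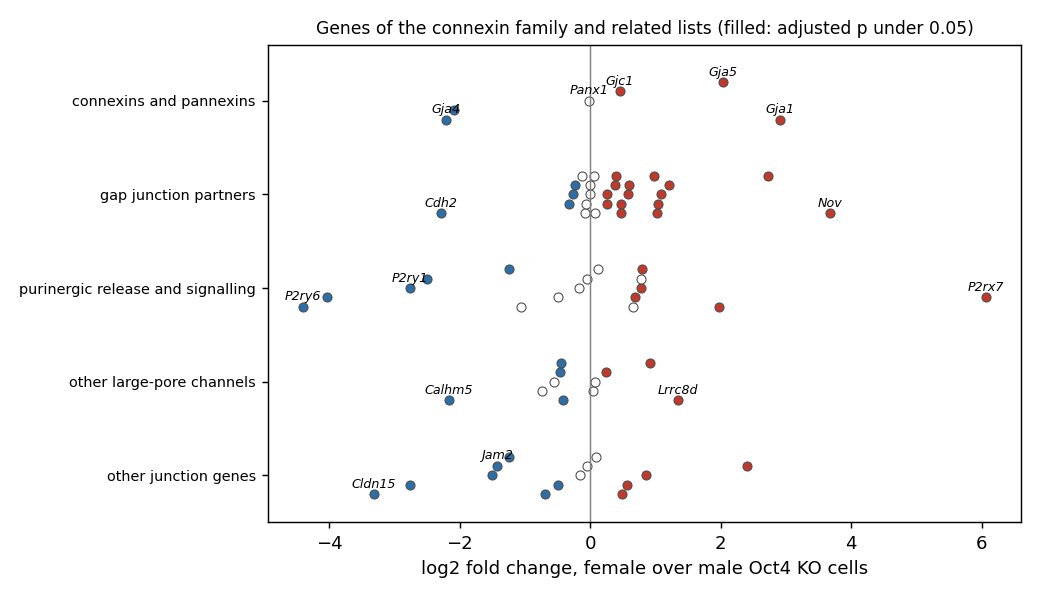
Log2 fold change, female over male, of genes in the connexin and pannexin family and in 4 related lists; each point is a gene, filled where the adjusted p was under 0.05 (red higher, blue lower in female cells) and open otherwise, and the vertical spread within a list only separates points. Lin7a and Cldn1 are left out because the male replicates together held at most 1 count. Of the family genes shown, Gja1, Gja5 and Gjc1 lie above 0 and Gja4 and Gjb5 at -2.21 and -2.09, and P2rx7 lies at 6.07. A few further genes are not drawn.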

How the data were processed

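The 6 libraries were made from poly(A)-selected RNA, per the labels' protocols. HISAT2 2.0.5, featureCounts 1.5 and the build mm10 are named by the submitters' processing notes; strand setting, multi-mapping rule and annotation release are not given in the sources used here. The deposited table holds raw counts per gene, which the authors did not normalise, with other annotation such as gene length. Columns were matched to samples by library name, and 0 other sample columns were present.

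Sexes were compared by edgeR 4.0.16 quasi-likelihood tests (R 4.3.3; low counts removed by filterByExpr, TMM scaling, a single sex term, two-sided, Benjamini-Hochberg over 14814 genes, call at an adjusted p under 0.05). SEs are |log2 fold change| over the root of the F statistic. On simulated counts for this comparison the procedure was tested and recovered 96 of 100 genes changed 2-fold and 100 of 100 changed 4-fold. The changed genes were drawn above a minimum mean level, and all genes were given the same low spread. Recovery of scarcer or more variable genes, such as Gjb5, was not tested. Shares and ratios were compared with exact permutation tests (scipy 1.17.1). Shares are over the connexins among the 8 genes, a choice made after the data were seen. Promoter sequences are from RefSeq, which held windows for Gja1, Gja4, Gja5, Panx1 and Gjb5 among the genes read.

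Alternatives were DESeq2 1.42.0, limma-voom (limma 3.58.1), other scalings, no filter, protein-coding genes only, a length and GC correction, a replicate block and leaving out each library. Members, lists and tests were chosen with earlier results of these data known. Named were all 8 members, up to 4 called genes per direction of each other list, tested neighbours and the 2 genes nearest in pattern. Others were named after their values were seen: the other family genes, single cell type markers and genes overlapping Gja5. So were uncalled, weakened or reversed list genes such as Entpd1, Nt5e, Wwp1, Gsk3b and Nedd4. Some genes that the rule or the lists include are not reported or drawn here; list counts include them.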

Additional observations from a re-analysis of the deposited data

How the results depend on the processing

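All 4 calls among the 8 genes held in all 15 alternatives, with log2 fold changes of 2.39 to 2.94 for Gja1, -2.77 to -1.83 for Gja4, 1.83 to 2.21 for Gja5 and 0.31 to 0.53 for Gjc1, while Panx1 ran from -0.17 to 0.05 and was never called. The number of all genes called ran from 8236 to 9320. The share of Gja1 in the sum over the connexins among the 8 moved with the length used: without division by length it was 97.0% in female and 84.4% in male cells, and with transcript lengths, an alternative chosen after seeing the data, 95.9% in female and 79.0% in male cells. With the length and GC correction the log2 fold change reversed for Mapk3 (0.11), Wwp1 (-0.25), Gsk3b (0), Smurf2 (-0.24), Enpp1 (-0.38), Lrrc8c (-0.36) and Nectin3 (-0.11); the cause was not tested. With total counts as the only scaling the median of all genes was -0.13, with 3956 genes called higher and 5294 lower. Whether the replicate numbers pair the libraries is not stated. Correlations of same-numbered deviations were -0.15 to -0.02, but deviations centred within so few libraries cannot settle it. With the numbers as a replicate block 4 of the 8 genes were called and the log2 fold change of Gja4 was -2.25. Low counts, 9 to 106 per library for Gja4, 6 to 42 for Gja5 and 1 to 24 for Gjb5, limit the precision of these genes.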
